A study of Mus musculus with 12 samples.

Results

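The cytosolic ribosomal protein genes were described here in mouse sarcomas and in sorted bone marrow stromal cells with or without p53. They were taken as every row of the stabilized expression table whose symbol is Rpl or Rps with a number and at most 1 further letter, or Rplp0 to Rplp2, or Rpsa, and that is also in the second deposited table. The rule found 80 genes among the 18949 genes present in both tables, 32 for the small subunit and 48 for the large subunit. It uses symbols alone and no expression value.

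Ribosomal proteins fold with ribosomal RNA into the small subunit, which reads the messenger RNA, and the large subunit, which joins amino acids. Their messengers are among the most abundant of growing cells and mostly begin with a run of pyrimidines, the terminal oligopyrimidine tract, through which mTOR signalling controls their translation. When ribosome assembly is disturbed, several free ribosomal proteins, Rpl5 and Rpl11 above all, bind the ubiquitin ligase Mdm2 and stabilize p53.

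RNA was sequenced from 6 sarcomas that arose in bone or marrow of p53 knockout mice, from 3 libraries labelled p53 knockout MSC and from 3 libraries labelled p53 wild-type MSC (MSC, mesenchymal stem cell). The MSCs were freshly isolated marrow cells sorted as CD45-, Ter119-, CD31-, CD140a+ and LepR+, and tumor RNA was extracted from tissue that no label describes as sorted. The labels give neither the p53 allele, nor the age or strain of the mice, nor whether each library is a different animal, and the p-values therefore speak of spread between libraries only. In bulk RNA, fewer cells of a type and less RNA per cell cannot be told apart.

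Values are variance-stabilized log2 levels adjusted for batch, as deposited, and read depth is unknown. Exactly shared low values split the libraries into batch 1 (tumors 1 to 3 and the first library of each MSC label) and batch 2 (the other 7 libraries). Trp53, the gene named in the labels, ran from 6.79 to 9.16 in tumors. It was 10.49, 9.76 and 6.96 in the libraries labelled KO MSC 1, 2 and 3, against 9.96, 10.04 and 10.61 in WT MSC 1, 2 and 3. The libraries labelled KO MSC 1 and 2 therefore held Trp53 near or inside the wild-type range, so results drawn from that label are given for the libraries as labelled. The library labelled KO MSC 3 also stood apart, with 8680 genes below a level of 5.5, against 5224 to 6536 in the other 11 libraries.

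The level of the 80 genes as a whole was highest in tumors and lowest in wild-type stromal cells. The median over the genes was 13.28, 13.05, 12.72, 11.86, 14.19 and 13.07 in tumors 1 to 6. It was 10.02, 11.61 and 12.17 in the libraries labelled KO MSC 1, 2 and 3, and 9.29, 10.04 and 10.38 in WT MSC 1, 2 and 3. Every tumor lay above every WT MSC library, while tumor 4 lay inside the range of the libraries labelled KO MSC. As means of library medians these are 13.03 ± 0.76 in tumors (SD, n = 6), 11.27 ± 1.11 in libraries labelled KO MSC (SD, n = 3) and 9.90 ± 0.56 in WT MSC (SD, n = 3). The median of all genes lay between 7.08 in tumor 4 and 5.89 in the library labelled KO MSC 3.

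**Figure D1:**
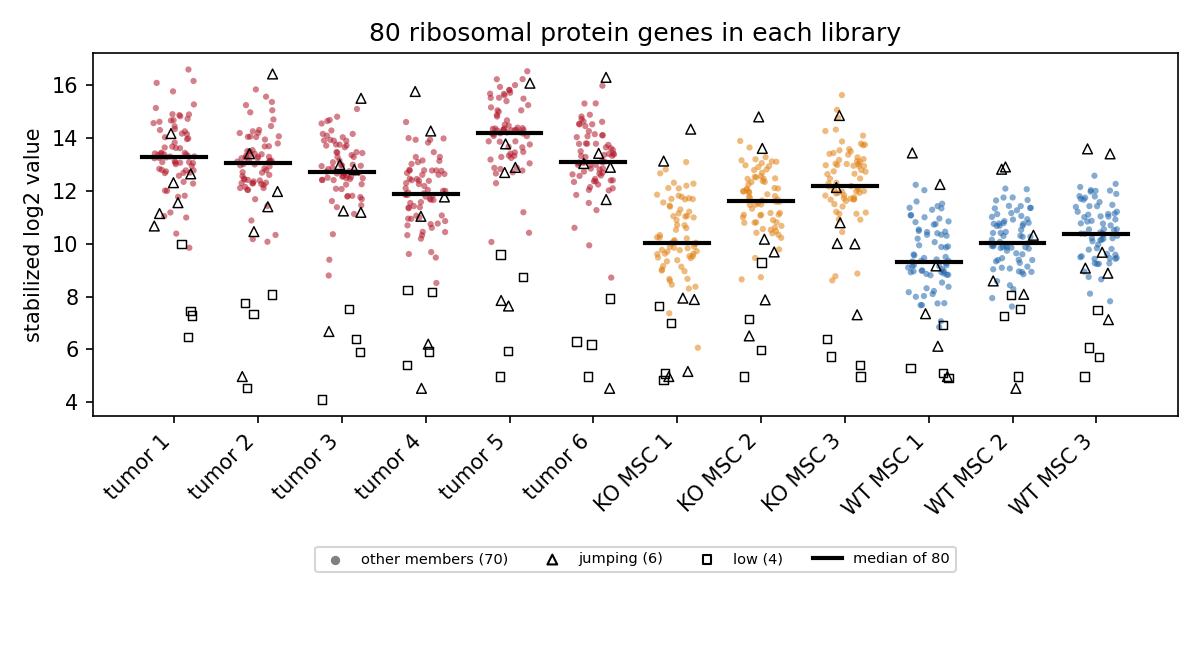
Stabilized log2 level (vertical axis) of each of the 80 ribosomal protein genes in each of the 12 libraries (horizontal axis, tumors first), with 70 genes as dots, 6 jumping genes as triangles, 4 low genes as squares and the median of 80 as a bar. The bars lie between 11.86 and 14.19 in tumors, between 10.02 and 12.17 in libraries labelled KO MSC and between 9.29 and 10.38 in WT MSC.

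Within a group the genes moved together, and the same libraries were high or low for most of them. Of the 70 genes that neither jump between libraries nor are low (both defined further on), tumor 5 held the highest tumor value for 54 and tumor 4 the lowest for 60. Among the libraries labelled KO MSC, number 3 was highest for 61 and number 1 lowest for 66. Among WT MSC, number 3 was highest for 64 and number 1 lowest for 58. The heat map of 69 of these genes shows these library steps across its columns.

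**Figure D2:**
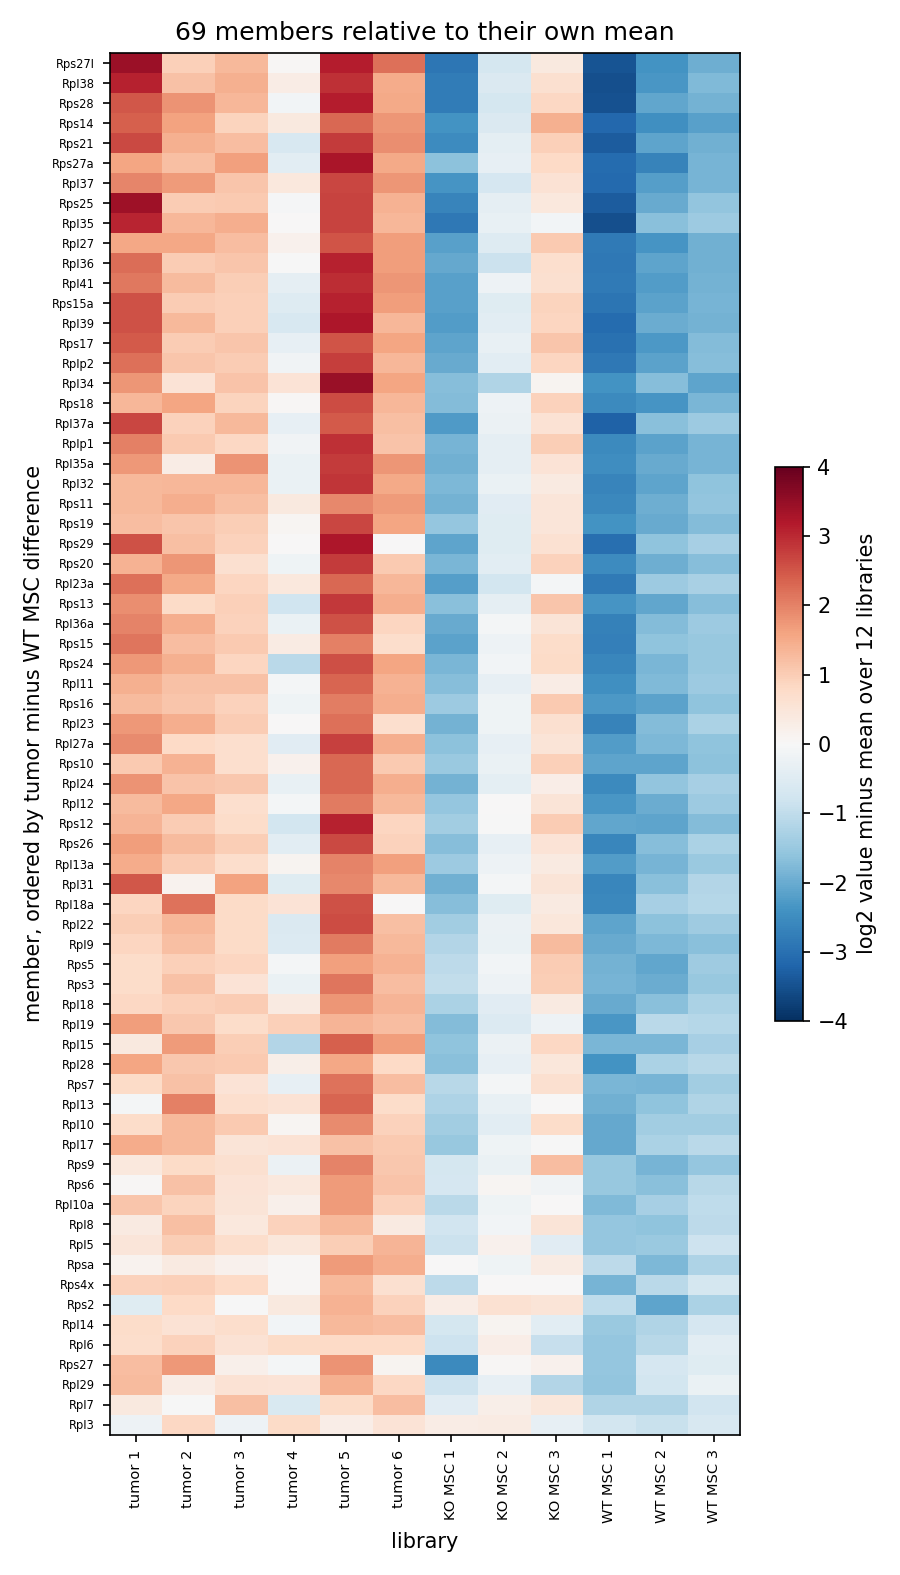
Each row is 1 of 69 of the 70 genes and each column 1 of the 12 libraries; color is the stabilized log2 level minus the gene's mean over the 12 libraries, and rows run from the widest tumor minus WT MSC difference at the top (Rps27l, 4.45) to the narrowest (Rpl3, 1.09). Tumor 5 is the highest tumor for 54 of the 70 genes and WT MSC 1 the lowest wild-type library for 58.

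The first comparison set the knockout tumors against wild-type stromal cells, the cell population that the study sampled without p53 loss. Ribosomal protein genes rose almost as a whole in tumors, with 70 of 80 called higher and 0 lower by limma at adjusted p under 0.05. Over all 18948 genes tested, 10.4% were called higher and 10.9% lower. The median difference over the 80 genes was 3.04 on the log2 scale, which is 8.20-fold, against -0.06 over all genes tested. Of the 80 differences 79 were above 0, against 46.4% of all genes. The tumors lay wholly above the WT MSC libraries for 72 of 80 genes, against 12.9% of all genes. Within batch 1 the median difference was 3.52 and within batch 2 it was 2.67. Called genes numbered 30 of 32 for the small subunit and 40 of 48 for the large subunit, with median differences of 3.14 and 2.80.

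The widest difference was that of Rps27l, a paralog of Rps27 that p53 itself induces in human cells, which lies on chromosome 9 at 66946086 to 66949516 in build GRCm38. Rps27l ran from 12.40 to 15.76 in tumors with a median of 14.09. It was 9.45, 11.63 and 12.72 in the libraries labelled KO MSC 1, 2 and 3, and 8.88, 9.95 and 10.38 in WT MSC 1, 2 and 3. All tumors were above all WT MSC libraries, and the lowest tumor was below the library labelled KO MSC 3. Rps27l was 4.45 ± 0.75 higher in tumors than in WT MSC (log2 difference ± SE, n = 6 and 3, adjusted p = 0.00282 by limma). Rps27, its long-known relative, was 1.73 ± 0.50 higher in tumors than in WT MSC (adjusted p = 0.0328 by limma). That call was lost with batch as a term (adjusted p = 0.0568 by limma), in 1 fit over the 12 libraries (0.0732), and without tumor 1, 2 or 5 or any 1 WT MSC library (0.0516 to 0.159). A retrotransposed copy outside the rule, Rps27rt, was 4.42 ± 0.71 higher (adjusted p = 0.00242 by limma), and reads shared between near-identical copies may be split among them.

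The other genes with the widest differences belong to both subunits. Rpl38, a large subunit protein needed in mice for the translation of some Hox messengers, ran from 11.53 to 14.33 in tumors with a median of 12.69. Rpl38 was 7.74, 8.93 and 9.48 in WT MSC 1, 2 and 3. Its lowest tumor exceeded its highest WT MSC library, and the difference was 4.26 ± 0.64 (adjusted p = 0.00204 by limma). Rps14, whose human counterpart is lost with part of the long arm of chromosome 5 in a myelodysplastic syndrome, was 4.15 ± 0.61 higher in tumors (adjusted p = 0.00184 by limma). Rps28 of the small subunit was 4.18 ± 0.65 higher (adjusted p = 0.00219), and Rps21 was 4.01 ± 0.70 higher (adjusted p = 0.00343, both by limma). Rps27a, which is made as a fusion with ubiquitin, was 4.00 ± 0.65 higher (adjusted p = 0.00256 by limma). Rpl37, Rps25, Rpl35 and Rpl27 were 3.99, 3.88, 3.86 and 3.82 higher, with adjusted p from 0.00132 to 0.00518 by limma. For all 10 of these genes the tumors lay above the WT MSC libraries without overlap.

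The promoters of these genes were searched for the pyrimidine start described above. RefSeq gave a promoter for 59 of the 80 genes on build GRCm38.p6. A start of C followed by at least 4 further C or T letters, within 2 bases of the annotated start, was present in 21 of the 59 (35.6%), against 10.6% of 27025 genes. Most of the 59 thus had no such run at their annotated start. The letters CCGGAAG, the core read by Ets family factors, occurred on either strand of the 300-base window in 25 of the 59 (42.4%), against 9.93% of all genes. A match is a description of the letters and not a site in use. The lines below give, 5′ to 3′ on the gene's strand, 40 bases before and 10 bases from the annotated start, with the pyrimidine run and any CCGGAAG in capitals.
Rpl38 (chr11:114668540-114668589, + strand): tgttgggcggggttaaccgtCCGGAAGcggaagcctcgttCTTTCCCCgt
Rps21 (chr2:180257339-180257388, + strand): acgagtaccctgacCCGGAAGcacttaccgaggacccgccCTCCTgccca
Rpl35 (chr2:39005122-39005171, - strand): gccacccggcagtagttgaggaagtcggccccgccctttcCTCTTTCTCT
Rplp2 (chr7:141447611-141447660, + strand): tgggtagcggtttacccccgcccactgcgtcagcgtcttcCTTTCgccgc
Rps6 (chr4:86857358-86857407, - strand): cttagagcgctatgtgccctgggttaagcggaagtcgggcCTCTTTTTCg
Rps27 (chr3:90213639-90213688, - strand): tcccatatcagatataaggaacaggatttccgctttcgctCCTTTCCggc
These 6 were picked, with their values known, because they carry the pyrimidine start across the range of differences. Rpl38, Rps21 and Rpl35 are among the 10 genes with the widest difference (4.26, 4.01 and 3.86), while Rplp2, Rps6 and Rps27 differed by 3.62, 2.27 and 1.73.

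Ribosomal proteins that signal to p53 rose with the rest. Rpl5 ran from 12.75 to 13.64 in tumors with a median of 13.13, against 10.74, 10.79 and 11.47 in WT MSC 1, 2 and 3. Rpl11 ran from 11.34 to 13.75 in tumors with a median of 12.70, against 8.95, 9.63 and 9.97 in WT MSC 1, 2 and 3. Neither gene's groups overlapped, and the differences were 2.12 ± 0.37 for Rpl5 (adjusted p = 0.00338) and 3.13 ± 0.49 for Rpl11 (adjusted p = 0.00217, both by limma). After quantile scaling Rpl5 was no longer called (adjusted p = 0.0617 by limma). Of 17 tested ribosomal proteins reported to bind Mdm2, 16 rose and the other was Rpl26, a low gene in these tables. Rps19, the gene most often mutated in human Diamond-Blackfan anaemia, was 3.32 ± 0.55 higher in tumors (adjusted p = 0.00264 by limma). Of 19 tested genes of that anaemia, 18 rose, the exception again being Rpl26.

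Genes known for other roles rose too. Rps6, the substrate of S6 kinase, was 2.27 ± 0.42 higher in tumors than in WT MSC (adjusted p = 0.00427 by limma). Rpsa, the small subunit protein also known as the laminin receptor, was 2.00 ± 0.49 higher (adjusted p = 0.0159 by limma), a call lost after quantile scaling (0.154) and without WT MSC 2 (0.082) or WT MSC 3 (0.0554). The stalk proteins that recruit elongation factors were all called higher. Rplp1 differed by 3.48 ± 0.62 (adjusted p = 0.00364), Rplp2 by 3.62 ± 0.62 (adjusted p = 0.0031) and Rplp0 by 2.39 ± 0.66 (adjusted p = 0.0268, all by limma). The Rplp0 call was lost with no filter (adjusted p = 0.0606 by limma), after quantile scaling (0.273), and without tumor 3, tumor 6 or any 1 WT MSC library (0.0512 to 0.11). Rpl3, which lies close to the catalytic centre, was the single gene of the 70 that was not called. Rpl3 was 11.81 to 12.85 in tumors with a median of 12.43, against 11.28, 11.12 and 11.39 in WT MSC 1, 2 and 3. Its groups did not overlap, and its difference was 1.09 ± 0.36 (adjusted p = 0.0558 by limma). Rpl3 was called in the second deposited table (adjusted p = 0.037 by limma), after upper-quartile centring (0.0475) and without tumor 1 (0.039).

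The call in tumors against WT MSC rested on both batches together. In batch 2 alone, with 3 tumors and 2 WT MSC libraries, 2 of 80 genes were called higher, against 184 of all 18948 genes. The median difference there was 2.67. After quantile scaling, which forces all libraries to 1 distribution, 59 of the 80 genes were called higher, against 1959 of all 18948 genes. The median difference was then 2.25.

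The difference narrowed with coding length, a pattern looked at after the values were seen. The 10 genes with coding sequences of up to 300 bases had a median difference of 3.88, the 24 genes of 300 to 450 bases 3.31, the 18 genes of 450 to 600 bases 3.05 and the 17 genes of 600 to 900 bases 2.26. Across the 70 genes the Spearman correlation of the difference with coding length was -0.77. Genes are not independent replicates, so this is a description. Rps27, with 252 coding bases, differed by 1.73, below the median of its length class.

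Other genes showed a trend of the same direction. Among genes outside the family with a mean level of at least 10, those of up to 300 coding bases differed by a median of 3.01 (114 genes, 87.7% called higher). The medians were 2.41 at 300 to 450 bases, 1.69 at 450 to 600 bases and 1.06 at 600 to 900 bases. Above 1500 bases the median was -0.70 (253 genes, 2.37% called higher), and the correlation over 1597 such genes was -0.68. In each shared class up to 900 bases the ribosomal protein genes had the higher median, by 0.87, 0.91, 1.36 and 1.20 on the log2 scale from the shortest class to the longest, a difference that was not tested.

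**Figure D3:**
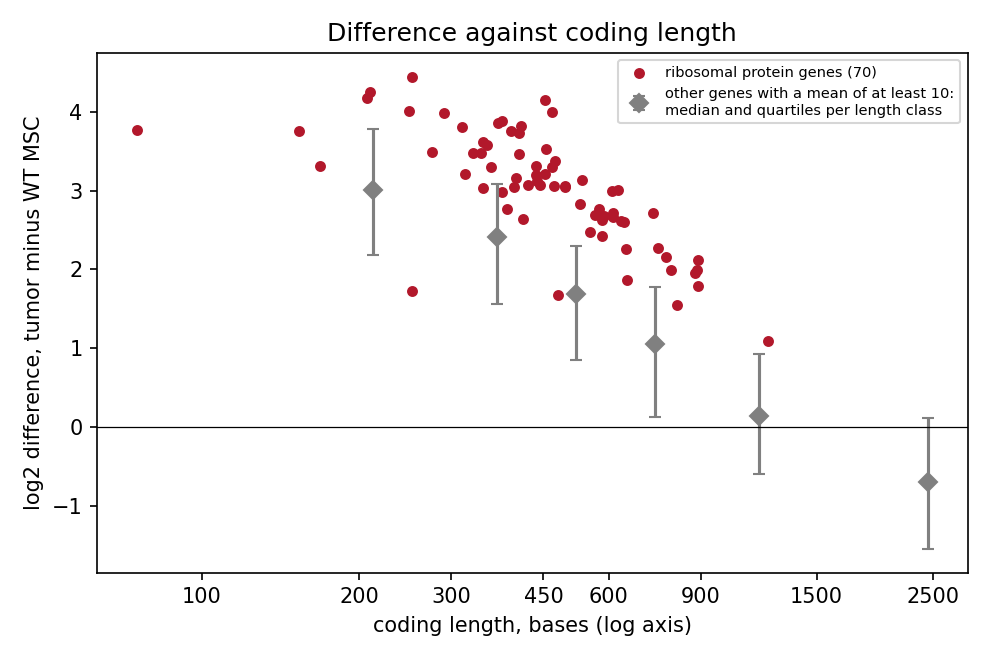
Log2 difference, tumor minus WT MSC (vertical axis), against coding length in bases (horizontal log axis) for the 70 ribosomal protein genes as red dots; gray diamonds with bars are the median and quartiles of other genes with a mean level of at least 10 in each length class. Medians of the family run from 3.88 in the shortest class to 2.26 at 600 to 900 bases, and those of other genes from 3.01 to 1.06 over the same classes.

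The balance of short and long genes also differed between libraries. The median level of other genes of up to 300 coding bases minus that of genes above 1500 bases was 0.06 to 3.46 in tumors, lowest in tumor 4 and highest in tumor 5. It was -2.28, -0.51 and 1.74 in the libraries labelled KO MSC 1, 2 and 3, and -2.41, -1.48 and -1.73 in WT MSC 1, 2 and 3. In tumors and in libraries labelled KO MSC, the lowest and highest libraries by this measure were also the lowest and highest by the ribosomal protein median. The part of this balance in the difference was not tested beyond the length classes.

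Cell makeup moved with the same comparison. All 10 macrophage markers rose in tumors, and their mean level per library was 10.90 to 14.32 in tumors, against 5.00 to 6.61 in WT MSC, where 3 of the 10 were below 6 in every library. All 9 stromal markers fell, with a mean level of 6.78 to 8.97 in tumors and 12.35 to 13.38 in WT MSC. Endothelial markers rose in 8 of 10 cases. Neutrophil markers fell in 3 of 10 cases (median difference -2.11, 1 above 0), with a mean level of 5.39 to 7.80 in tumors and 7.07 to 10.41 in WT MSC. Erythroid markers fell in 4 of 11 cases (median difference -2.75, 2 above 0), with a mean level of 7.35 to 10.94 in tumors and 9.98 to 12.75 in WT MSC. Mature skeletal muscle markers, with 0 of 11 called by limma, averaged 14.05 in tumor 4, the tumor with the lowest ribosomal protein median, and 5.32 to 10.65 in the other tumors. Tumor 4 also had the highest mean macrophage (14.32) and endothelial (9.44) marker levels of the tumors. In tumor 5, with the highest ribosomal protein median, these were 13.13 and 7.43. The part of these cells in the ribosomal protein result was not tested.

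The next question was how tumors compare with stromal cells whose label (KO MSC) shares their p53 genotype. Of the 80 genes 4 were called higher by limma and 0 lower, or 5.0% of the family, against 2.7% of all genes called higher and 2.28% called lower. Among all genes called, 54.2% were higher in tumors, a share that quantile scaling brought to 35.1%. At an unadjusted p under 0.05, 56 were higher and 0 lower, against 13.6% of all genes that were higher. The median difference was 1.66 (3.15-fold), against 0.04 over all genes, and 78 of 80 differences were above 0, against 52.7% of all genes. It was 2.90 within batch 1, which holds 1 library labelled KO MSC, and 1.04 within batch 2. Tumors lay wholly above the libraries labelled KO MSC for 12 of 80 genes, against 8.0% of all genes. In the length classes up to 900 coding bases, family genes that neither jump nor are low had medians of 2.12, 1.78, 1.61 and 1.11, shortest first. Other genes with a mean level of at least 10 had medians of 2.00, 1.43, 0.90 and 0.47 in the same classes. The gap between them was not tested.

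Rpl19, Rpl23a and Rpl29 of the large subunit were among the called genes, and Rpl23a sits at the exit of the peptide tunnel. Rpl19 ran from 12.08 to 13.004 in tumors with a median of 12.49, against 9.61, 10.81 and 11.13 in the libraries labelled KO MSC 1, 2 and 3. Rpl23a ran from 10.94 to 12.82 in tumors with a median of 11.93, against 8.30, 9.78 and 10.44 in the libraries labelled KO MSC 1, 2 and 3. In both genes the lowest tumor exceeded the highest of those libraries. The differences by limma were 1.99 ± 0.44 for Rpl19 (adjusted p = 0.0272) and 2.45 ± 0.57 for Rpl23a (adjusted p = 0.032). Rpl29 differed by 1.59 ± 0.38 (adjusted p = 0.0352 by limma).

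These calls depended on single libraries. None of the 80 genes was called without tumor 5, without tumor 6, or without the library labelled KO MSC 1 or KO MSC 2, and 2 were called without tumor 1. Without the library labelled KO MSC 3, 12 were called. Calls over all 18948 genes moved as well. Genes called higher numbered 512 with all libraries, 300 without tumor 5, 318 without tumor 6 and 430 without tumor 1. They numbered 41, 184 and 704 without the libraries labelled KO MSC 1, 2 and 3. The median difference was 1.05 without the library labelled KO MSC 1 and 0.94 after quantile scaling. Macrophage markers were called higher in 10 of 10 cases here too, with a mean level of 5.07 to 6.57 in the libraries labelled KO MSC. Neutrophil markers fell in 6 of 10 cases, with a mean level of 5.39 to 7.80 in tumors and 8.08 to 12.02 in the libraries labelled KO MSC. Stromal markers fell in 5 of 9 cases and none had a difference above 0, with a mean level of 6.78 to 8.97 in tumors and 11.06 to 11.84 in the libraries labelled KO MSC. Erythroid markers fell in 4 of 11 cases (median difference -3.65), with a mean level of 7.35 to 10.94 in tumors and 10.45 to 12.42 in the libraries labelled KO MSC. Endothelial markers rose in 5 of 10 cases, with a mean level of 7.06 to 9.44 in tumors and 5.53 to 6.002 in the libraries labelled KO MSC. The part of these cell types in the result was not tested.

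The third comparison asked how the loss of p53 in sorted stromal cells alters the genes, as far as the labels give the genotype. By limma 0 of 80 genes were called in either direction, as were 0.0% of all 18948 genes, with a lowest adjusted p of 0.551. At an unadjusted p under 0.05, 33 of 80 genes were higher in the libraries labelled KO MSC and 0 were lower, against 2.57% and 6.07% of all genes. The median difference was 1.41 (2.66-fold), against -0.01 over all genes, and 74 of 80 differences were above 0, against 47.8% of all genes. It was 0.73 within batch 1, with 1 library a label, and 1.73 within batch 2. The groups did not overlap for 23 of 80 genes, all higher, against 6.31% of all genes. Median differences were 1.61 for the small subunit and 1.22 for the large subunit. In the length classes up to 900 coding bases, family genes that neither jump nor are low had medians of 1.58, 1.54, 1.48 and 1.19, shortest first. Other genes with a mean level of at least 10 had medians of 1.07, 0.99, 0.78 and 0.60 in the same classes, a gap that was not tested.

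Small subunit genes held all 5 of the smallest unadjusted p-values. Rps2, a protein near the channel where the messenger enters, was 11.77, 12.09 and 11.98 in the libraries labelled KO MSC 1, 2 and 3, against 10.45, 9.38 and 10.20 in WT MSC 1, 2 and 3. Rpsa was 12.66, 12.47 and 12.97 in the libraries labelled KO MSC, against 11.59, 10.85 and 11.42 in WT MSC. The groups did not overlap in either gene, and the differences were 1.93 ± 0.41 and 1.41 ± 0.41 (n = 3 each, adjusted p = 0.551 for both by limma). Rps27a, Rps12 and Rps6 differed by 2.16 ± 0.65, 1.86 ± 0.59 and 1.19 ± 0.39, with the same adjusted p of 0.551 by limma. Of the genes with a lower value in the libraries labelled KO MSC, Rpl30 differed by -1.04 ± 0.57 and Rpl4 by -0.58 ± 0.93. Rpl26, Rps4l and Rpl3l differed by -0.47, -0.24 and -0.02, and all 5 are jumping or low genes.

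Single libraries weighed heavily on this comparison as well. Without the library labelled KO MSC 3 the median difference was 0.89, and 17 of the 80 genes were higher at an unadjusted p under 0.05, against 4.03% of all genes. Without the library labelled KO MSC 1 the median difference was 2.02, with 65 such genes against 5.42% of all genes. Without the library labelled KO MSC 2 there were 8 such genes, against 1.6% of all genes. Leaving out WT MSC 1 gave 4 such genes and 1 lower, against 2.29% of all genes that were higher. Leaving out WT MSC 2 also gave 4, against 0.29% of all genes, and leaving out WT MSC 3 gave 21, against 1.05%. Mean neutrophil marker levels were 12.02, 9.24 and 8.08 in the libraries labelled KO MSC 1, 2 and 3, against 10.41, 9.001 and 7.07 in WT MSC 1, 2 and 3. None of the 9 stromal markers had a difference above 0, with a median of -1.37 and 0 of 9 called by limma. Their mean level was 11.84, 11.32 and 11.06 in the libraries labelled KO MSC 1, 2 and 3, against 13.38, 12.75 and 12.35 in WT MSC 1, 2 and 3, without overlap. Within each label the order of the libraries by the neutrophil or the stromal list was the reverse of their order by the ribosomal protein median. Erythroid and macrophage lists did not keep that order in both labels. Mean erythroid levels were 12.42, 11.82 and 10.45 in the libraries labelled KO MSC 1, 2 and 3, and 12.75, 9.98 and 10.70 in WT MSC. Mean macrophage levels were 5.07, 6.57 and 6.16 against 5.00, 6.61 and 6.32. Between the labels 8 of 10 neutrophil markers had a difference above 0 (median 1.09, 0 called by limma). The part of these cells was not tested.

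Genes that jump between libraries were set apart from these results. A gene was taken to jump where it reached a level of 10 and where, after subtracting the median of the 80 genes in each library, it ranged over more than 3 within a group. There were 6, namely Rps23, Rps4l, Rpl30, Rpl39l, Rpl4 and Rplp0, the last just inside the limit with a range of 3.01 and Rpl3 just outside with 2.81. A further 4 genes with a mean level under 8, Rpl21, Rpl26, Rpl3l and Rpl7a, were taken as low. Of the 6 jumping genes 1 was called higher in tumors against WT MSC, and of the 4 low genes 0.

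Rps23, a protein of the decoding centre on chromosome 13 at 90922958 to 90924950, switched between a usual level and a low value repeated within each batch. Rps23 was 11.55, 4.97, 11.18, 4.53, 13.77 and 4.53 in tumors 1 to 6. It was 4.97, 10.17 and 12.12 in the libraries labelled KO MSC 1, 2 and 3, and 4.97, 4.53 and 9.07 in WT MSC 1, 2 and 3. In 6 of the 12 libraries it held exactly its own lowest value of the batch, in every group and in both batches. Its differences were 2.23 ± 2.17 for tumors against WT MSC (adjusted p = 0.479) and -0.67 ± 2.25 for tumors against libraries labelled KO MSC (adjusted p = 0.881, both by limma).

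The other jumping genes each had their own odd libraries. Rpl30 was 11.14, 11.97, 6.68, 11.03, 7.64 and 11.67 in tumors 1 to 6, against 6.51 to 7.89 in libraries labelled KO MSC and 7.35 to 8.88 in WT MSC. Tumors 3 and 5 thus fell to the stromal level while the other 4 lay above it. Rpl39l, a paralog of Rpl39 known from mouse male germ cells, was 10.45 to 13.03 in tumors other than tumor 4, where it was 6.20, against 6.12, 8.08 and 7.13 in WT MSC 1, 2 and 3. Its difference of 3.91 ± 1.29 did not pass (adjusted p = 0.0531 by limma). It did pass without tumor 4 (adjusted p = 0.00143 by limma) and with the replicate block (0.041). It also passed in the second deposited table (0.048) and after upper-quartile centring (0.0434). Rpl39 itself was 3.76 ± 0.72 higher in tumors (adjusted p = 0.00518 by limma).

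Rpl4 was 13.12 and 13.60 in the libraries labelled KO MSC 1 and 2 and 9.99 in the library labelled KO MSC 3, against 12.24, 12.81 and 13.39 in WT MSC 1, 2 and 3. Rpl4 ran from 12.64 to 14.26 in tumors, was highest in tumor 4, and its difference from WT MSC was 0.42 ± 0.49 (adjusted p = 0.556 by limma). Rps4l, annotated as a transcribed processed pseudogene in GENCODE M21, was 7.85 in tumor 5 and 10.67 to 12.89 in the other tumors. Rplp0 was 14.16 in tumor 1 and 15.49 to 16.41 in the other tumors, all above the 13.43, 12.90 and 13.58 of WT MSC 1, 2 and 3. Rpl30, Rps4l and Rpl4 thus went against the library order of the 70, in which tumor 5 was high and tumor 4 low. Rps23 and Rpl39l were high in tumor 5 and held their lowest tumor value in tumor 4, which for Rps23 tumor 6 shared.

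**Figure D4:**
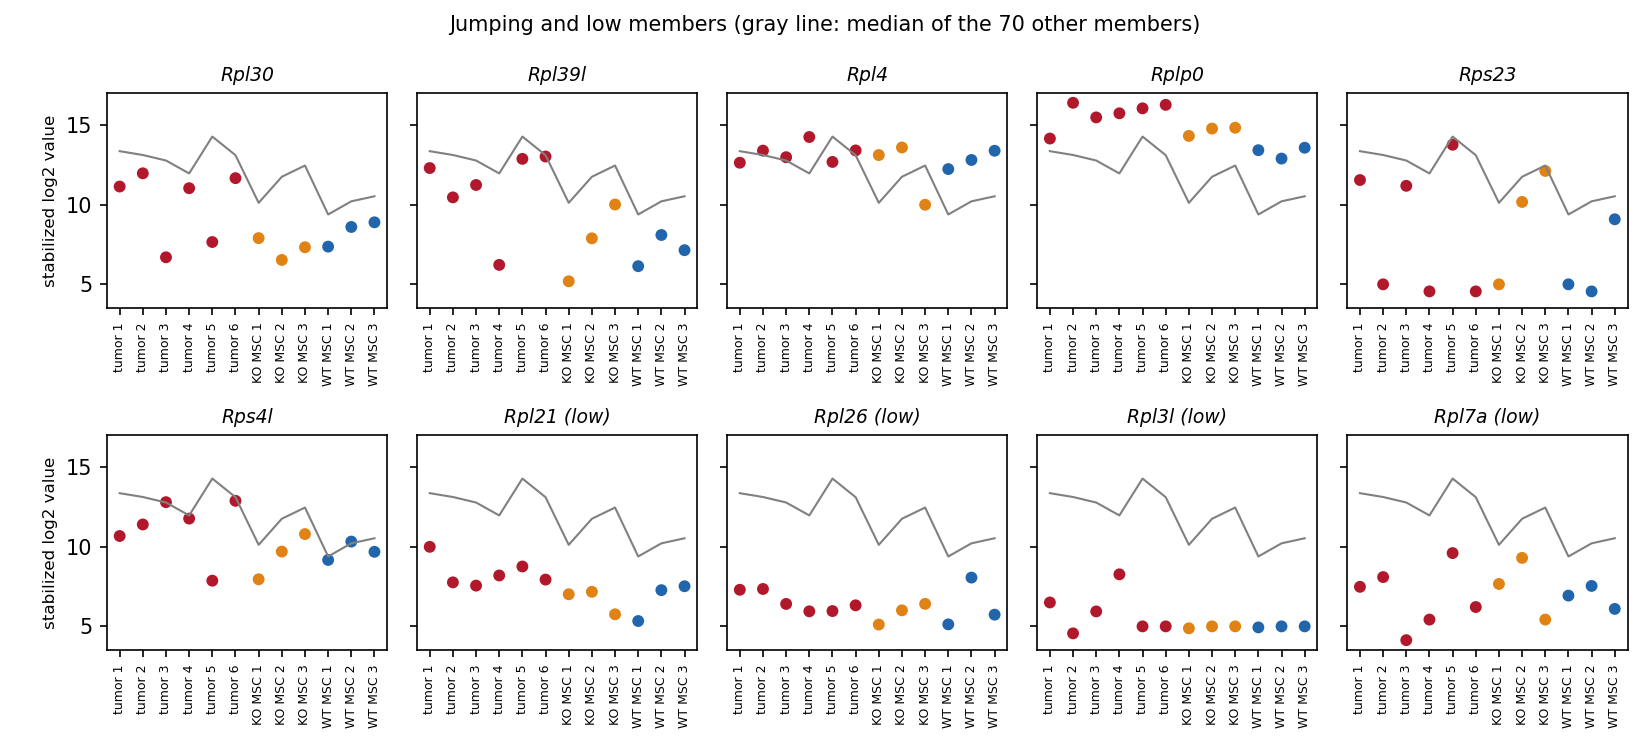
Stabilized log2 level (vertical axes) of the 6 jumping and 4 low genes, 1 panel each, in the 12 libraries (horizontal axes, tumors red, KO MSC labels orange, WT MSC blue); the gray line is the median of the 70 other genes. Rps23 drops to 4.97 or 4.53 in 6 libraries, and Rpl30 to 6.68 and 7.64 in tumors 3 and 5.

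Of the low genes, Rpl3l is the paralog of Rpl3 found in skeletal and heart muscle. Rpl3l was 8.25 in tumor 4 and 4.53 to 6.48 in the other tumors, against 4.91 to 4.97 in WT MSC. Tumor 4 is the tumor with the highest muscle marker level (14.05), as given above. Rpl21 was 7.54 to 9.98 in tumors and 5.31, 7.25 and 7.50 in WT MSC 1, 2 and 3, without overlap and without passing (adjusted p = 0.0796 by limma). Rpl26 and Rpl7a overlapped between tumors and WT MSC, and their differences were 0.24 ± 0.61 and -0.03 ± 1.01. GENCODE M21 holds pseudogenes named after their parent gene for 60 of the 80 genes, namely 7 of the 10 jumping or low genes and 53 of the 70 others. Their median number was 1.5 in the 10 and 2 in the 70. Rpl21, Rpl7a, Rpl26 and Rpl30 had 15, 13, 6 and 9, and the other jumping or low genes 0 to 2. Of the 70, Rpl31 and Rps12 had 24 and 23. Reads that fit several copies may make the levels of these 60 genes uncertain, which was not tested. Pseudogenes under other names were not counted, so the remaining genes may have copies too.

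Lists of genes that work beside the ribosomal proteins had smaller median differences, a contrast that was not tested. None of the lists was matched to the family by coding length, with which the differences of other genes narrowed as well. Of 20 other genes with a pyrimidine start tested, 11 rose and 0 fell in tumors against WT MSC, with a median difference of 1.71. Fau, which encodes a small subunit protein fused to a ubiquitin-like protein, was 3.55 ± 0.54 higher (adjusted p = 0.00212), and Naca, a chaperone subunit at the peptide exit, was 2.32 ± 0.41 higher (adjusted p = 0.00383, both by limma). Of 6 elongation factors 2 rose (median 1.32), among them Eef1d by 2.04 ± 0.46 (adjusted p = 0.0108 by limma). Of 28 initiation factors 10 rose and 1 fell (median 0.94), with Eif3k, a subunit of the initiation factor that holds the small subunit, 1.92 ± 0.29 higher (adjusted p = 0.00209 by limma).

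Ribosome assembly factors showed no common direction, and mitochondrial ribosomal proteins did. Of 37 assembly factors 5 rose and 3 fell in tumors against WT MSC, with a median difference of -0.04. Nhp2, a core protein of the RNA pseudouridine machinery, was 2.85 ± 0.39 higher (adjusted p = 0.00152), and Nat10, an RNA acetyltransferase, was 1.70 lower, a difference of -1.70 ± 0.36 (adjusted p = 0.00784, both by limma). Of 35 mitochondrial ribosomal proteins 26 rose and 0 fell, with a median of 1.88. Mrpl13 was 2.92 ± 0.37 higher (adjusted p = 0.00133 by limma). Of 15 proliferation genes 3 rose and 5 fell in tumors against WT MSC, with a median of -0.55. Against libraries labelled KO MSC 0 of the 15 rose and 2 fell, with a median of -0.85. In tumors against libraries labelled KO MSC, 2 of 20 genes with a pyrimidine start rose, as did 2 of 28 initiation factors and 3 of 35 mitochondrial ribosomal proteins. Between the stromal labels limma called 0 genes of these lists.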

How the data were processed

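The authors deposited 2 tables of 12 libraries, the first of variance-stabilized, batch-adjusted log2 values per gene, per the file headers, and the second named as normalized counts. As deposited by the authors, each score in the second table is 100 times a stabilized log2 value divided by 1 factor per library. This relation was read from the values themselves, and score is the name used here for what the authors named normalized counts. Build mm10, Cuffdiff, Cufflinks 2.2.1 and TopHat2 2.0.13 are named in the submitters' processing notes; the route from alignment to these values is not given in the sources used here. Libraries were made from SMART-Seq v4 cDNA, a kit that does not keep the strand, per the labels' protocols. For each comparison limma (version 3.58.1, R 4.3.3) was run on the libraries of the 2 groups compared (trended empirical Bayes, two-sided, Benjamini-Hochberg over 18948 genes that vary), checked on simulated data. Coding lengths came from GENCODE M21. The 80 genes, lists, named genes (up to 10 called genes a direction, or 5 by p, and a set of known proteins) and rules for jumping and low genes were chosen with earlier results of these data known. Alternatives were batch as a term, a replicate block, the score table, no filter, 2 scalings, 1 fit over all libraries, and leaving out libraries; tests in batch 2 alone, within-batch values and length classes were added after the values were seen. A gene counted among the 80 is not reported here by name.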

Additional observations from a re-analysis of the deposited data

How the results depend on the processing

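For tumors against WT MSC, calls over all genes numbered 4033, against 1445 with the replicate block and 540 in batch 2 alone. In batch 2 alone 2 of the 80 genes were called higher, and 184 over all genes. Leaving out 1 library gave 1856 to 4737 calls over all genes (1856, 2339 and 2268 without WT MSC 1, 2 and 3), 59 to 71 of the 80 genes higher, and a median difference of 2.69 to 3.30. For tumors against libraries labelled KO MSC, calls numbered 944 over all genes and 4 of the 80. They were 34 and 0 with the replicate block, 1481 and 2 after quantile scaling, 27 and 0 in batch 2 alone, and 1923 and 13 in 1 fit over 12 libraries. Leaving out 1 library gave 113 to 1627 and 0 to 12 (over all genes 113, 396 and 1627 without the libraries labelled KO MSC 1, 2 and 3, 597 without tumor 5 and 621 without tumor 6), with a median of 1.05 to 2.18; within batch 1 it was 2.90. For libraries labelled KO MSC against WT MSC, batch 2 alone called 43 genes, none of the 80, and leaving out 1 library gave 0 calls and a median of 0.89 to 2.02. The replicate numbers do not pair the libraries (correlations 0.24, 0.15 and -0.15 between libraries labelled KO MSC and WT MSC of the same number); with the block, 49 of the 80 genes were called in tumors against WT MSC (among those lost were Rpl5, Rpl35, Rps6, Rps25, Rps27, Rpsa and Rplp0, at adjusted p of 0.0542 to 0.186 by limma) and 0 between the stromal labels. Batch as a term gave 68 and the scores 72 in tumors against WT MSC. Upper-quartile centring moved the median of all genes by 0.10 in both comparisons with WT MSC. Quantile scaling changed the share of higher calls in tumors against libraries labelled KO MSC to 35.1%, against 54.2%, and batch 2 alone to 33.3%. With a range of 2, 16 genes jumped, and with 4, 5 did.

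Signs turned for values that no test called. Between the stromal labels, Rpl3l was 0.013 with the scores, 0.098 after quantile scaling and 0.085 after upper-quartile centring, and Rps4l was 0.24 in batch 2 alone. Leaving out 1 library gave ranges of -0.041 to 0.022 for Rpl3l, -0.90 to 0.52 for Rps4l, -0.35 to 1.002 for Rps27, -0.59 to 1.83 for Rpl39l, -1.26 to 0.55 for Rpl4 and -1.06 to 0.42 for Rpl26. In tumors against libraries labelled KO MSC, Rps23 was 0.15 with the replicate block and -2.72 to 0.85 with 1 library left out, and Rpl4 was -0.13 to 1.68. After quantile scaling Rpl3, Rpl4, Rplp0 and Rpsa were -0.60, -0.082, -0.36 and -0.41, and Rpl4 in tumors against WT MSC was -0.76. The cause was not tested. Depth is unknown, so no counting error can be given.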
